A study of Mus musculus with 2 samples.

Results

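Splenic CD8 T cells carry a set of calcium- and sugar-binding proteins that rise when naive cells turn into effector cells. The 10 genes described here are S100a4, S100a6, S100a10, S100a11 and S100a13 of the S100 family, the galectin genes Lgals1 and Lgals3, the annexin genes Anxa1 and Anxa2, and Vim, the intermediate filament vimentin. They were named by symbol, by a rule that uses no measured level, but with earlier results of these data known. Each of the 10 was listed once among the 33696 genes of the files. Their levels were read in cells with at least 200 detected genes, under 10% mitochondrial UMIs (unique molecular identifiers, 1 per captured transcript), and UMIs of Cd8a or Cd8b1 and of Cd3d, Cd3e or Cd3g. Of these cells, 10699 came from the DHEA library and 8717 from the CTRL library.

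The DHEA group consisted of C57BL/6 mice, genotype WT, injected under the skin daily for 21 days with 40 mg/kg dehydroepiandrosterone, an androgen precursor used to model polycystic ovary syndrome, in 20 µL sesame oil. CTRL mice of the same strain and genotype had the same volume of oil on that schedule. CD8 T cells were taken from spleen with magnetic beads and described as pooled, and each group is 1 droplet library of 10x Genomics 3' chemistry. How many animals went into either library could not be read from the labels, so no difference below has a replicate check and no test across animals was possible.

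S100 proteins are small calcium sensors with paired EF-hand loops that dimerise and grip partner proteins, often annexins or cytoskeletal motors. Annexins bind acidic membrane lipids when calcium rises, and galectins bind beta-galactosides on surface glycoproteins such as CD43 and CD45. In T cells these genes are known as companions of effector and memory differentiation, when the cell remodels its membrane and its vimentin and actin skeleton to migrate and kill.

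Promoters are printed for S100a4, S100a6, S100a11 and S100a13, which lie in 1 gene cluster on chromosome 3 and of which, as described below, the first pair was steeply lower in naive cells and the other pair was not. Each sequence runs from 250 bases before to 50 bases after the gene's start, on the plus strand of build GRCm38.p6, as given by RefSeq. Capitals mark any match, on either strand, to 4 motifs: the TATA box TATAAA, the AP-1 motif TGANTCA, the T-box motif GGTGTGA and the RUNX motif TGTGGTN.
S100a4, chr3:90603520-90603819, plus strand: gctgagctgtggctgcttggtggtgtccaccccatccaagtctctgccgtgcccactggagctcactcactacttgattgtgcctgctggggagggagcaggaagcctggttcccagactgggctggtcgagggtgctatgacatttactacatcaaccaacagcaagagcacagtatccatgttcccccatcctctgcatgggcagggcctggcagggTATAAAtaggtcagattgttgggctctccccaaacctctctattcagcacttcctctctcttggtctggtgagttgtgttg
S100a6, chr3:90612644-90612943, plus strand: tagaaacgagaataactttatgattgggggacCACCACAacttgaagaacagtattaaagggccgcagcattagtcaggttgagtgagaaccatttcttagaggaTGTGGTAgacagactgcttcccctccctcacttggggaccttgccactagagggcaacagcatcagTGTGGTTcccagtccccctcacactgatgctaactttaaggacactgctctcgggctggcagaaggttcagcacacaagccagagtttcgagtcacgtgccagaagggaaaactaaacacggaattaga
S100a11, chr3:93520246-93520545, plus strand: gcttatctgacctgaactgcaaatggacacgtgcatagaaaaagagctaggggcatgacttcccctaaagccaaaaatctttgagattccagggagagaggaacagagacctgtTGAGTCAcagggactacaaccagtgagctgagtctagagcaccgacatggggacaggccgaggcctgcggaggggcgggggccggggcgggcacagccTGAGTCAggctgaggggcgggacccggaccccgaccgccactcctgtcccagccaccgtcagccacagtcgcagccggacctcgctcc
S100a13, chr3:90514185-90514484, plus strand: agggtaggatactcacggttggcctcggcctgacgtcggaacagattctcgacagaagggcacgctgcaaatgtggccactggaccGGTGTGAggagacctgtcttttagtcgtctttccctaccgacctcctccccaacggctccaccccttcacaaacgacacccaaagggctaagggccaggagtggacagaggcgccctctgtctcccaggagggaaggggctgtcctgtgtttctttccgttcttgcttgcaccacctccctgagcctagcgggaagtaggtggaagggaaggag

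The S100a4 promoter held a TATA box 31 bases before the start and no other match. The S100a6 window held 3 RUNX motifs, starting 218, 145 and 79 bases before the start, of which the farthest lay on the opposite strand. In S100a11 there were 2 AP-1 motifs, at 136 and 38 bases, and in S100a13 a T-box motif at 164 bases. Among the other genes with an entry, a TATA box stood 32 bases before the start of Anxa1 and of Vim and 17 bases before that of Anxa2, which also had an AP-1 motif at 95 bases. The Lgals3 window had no match. S100a10 and Lgals1 have no entry in the table used, so 8 of the 10 genes were covered. Over all 32851 mouse promoters of this length, 13.6% held the TATA letters, 7.81% the AP-1, 3.98% the T-box and 16.7% the RUNX letters, so a match is a description of these letters and not of a bound site.

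The kept cells had a median of 4483 UMIs in the DHEA library and 5615 in CTRL, and their summed CD8 and CD3 transcripts (Cd8a, Cd8b1, Cd3d, Cd3e and Cd3g) came to 4091 CPM in DHEA and 3534 CPM in CTRL, where CPM is UMIs per 1000000 UMIs of the same cells. Cd4, the helper T cell co-receptor, had 4 UMIs in DHEA and 3 in CTRL. The 2 libraries shared 51 cell barcodes, of which 45 in DHEA and 44 in CTRL were among the kept cells. Free RNA could not be gauged in B cells, since no barcode of either library met the B cell rule. The lowest gate is the only guide to it, as an upper limit. For genes found in every gate, such as S100a10, that level can include the cells' own transcripts. All intervals below are 95% intervals, exact for the counts themselves, and hold only the error of counting.

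Cells were sorted in silico by genes other than the 10. The granzyme gate took non-cycling cells with at least 2 UMIs of Gzma, Gzmb and Gzmk, proteases of cytotoxic granules, and held 229 DHEA cells (2.14% of the kept cells, 1.87 to 2.43) and 32 CTRL cells (0.367%, 0.251 to 0.518). The cycling gate took cells with at least 3 of 9 cell-cycle genes and held 68 DHEA cells (0.636%) and 32 CTRL cells (0.367%). Cells without granzyme UMIs but with at least 2 of Ccl5, Il2rb, Cxcr3 and Eomes formed the memory gate, 3538 in DHEA (33.1%) and 1874 in CTRL (21.5%). The naive gate, with none of those transcripts and at least 2 of 4 transcripts of naive T cells, held 3245 DHEA cells (30.3%) and 4058 CTRL cells (46.6%). The gates differ in depth: the median was 4142 UMIs in DHEA and 7345 in CTRL granzyme cells, and 6453.5 in DHEA and 14817 in CTRL cycling cells.

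**Figure D1:**
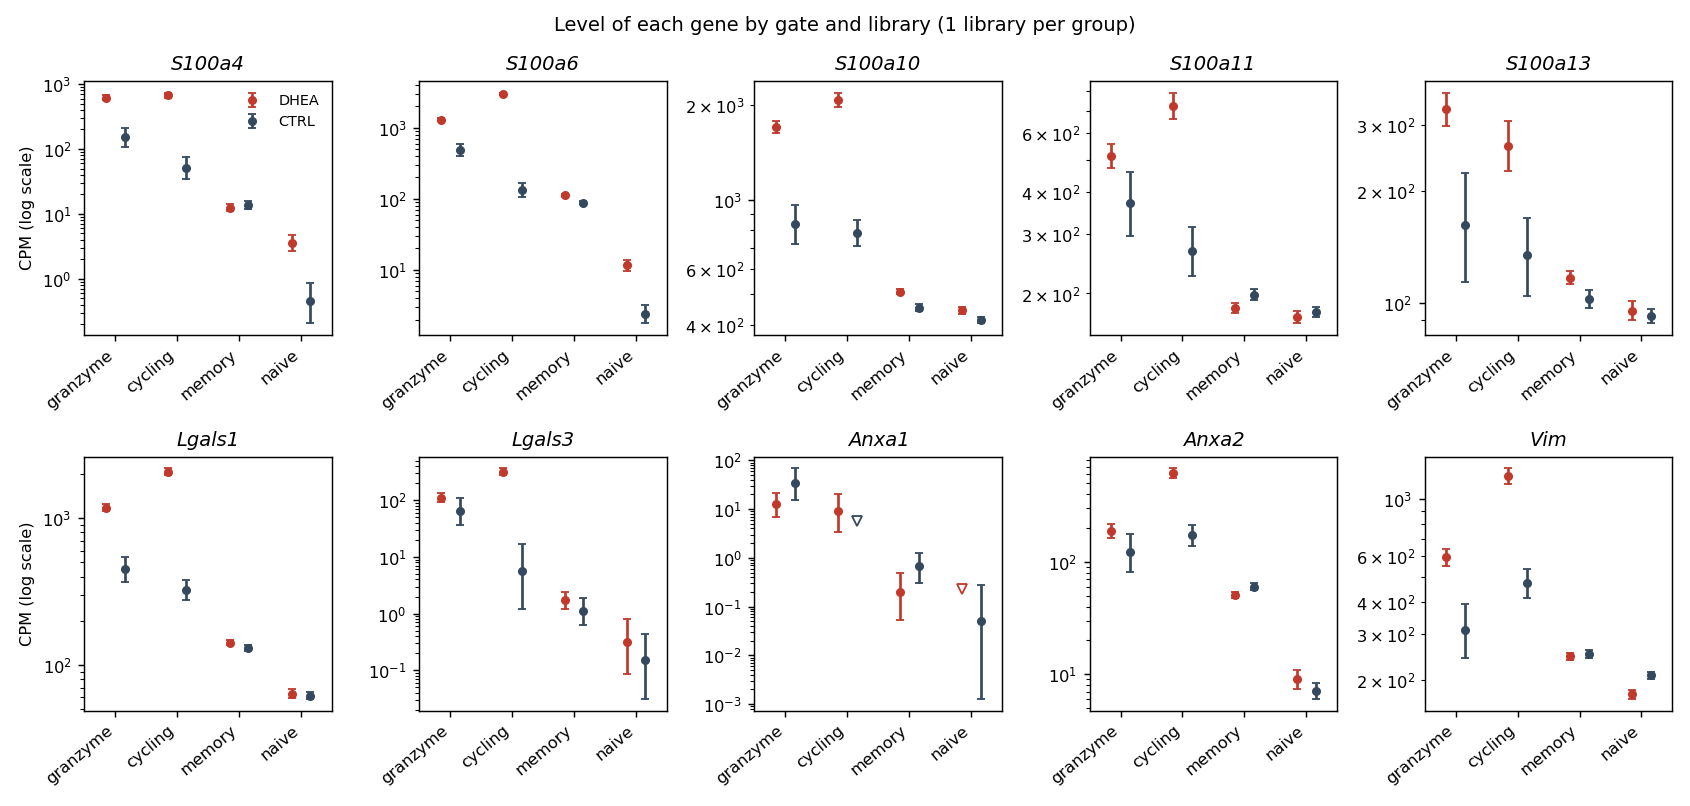
Level of each of the 10 genes in CPM (log axis) in the granzyme, cycling, memory and naive gates, DHEA in red left of CTRL in dark blue. Points are summed UMIs, as CPM, with exact 95% counting intervals, and open triangles mark 0 UMIs at the level that 3 UMIs would give. S100a4, S100a6, Lgals3 and Anxa2 span 1 or more powers of 10 from granzyme to naive cells in each library, whereas S100a10, S100a11, S100a13 and Vim stay within 1.

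S100a4, a calcium sensor that binds non-muscle myosin, was mostly a gene of granzyme and cycling cells in the DHEA library. It reached 619 CPM in DHEA granzyme cells (573 to 668, 677 UMIs) and 153 CPM in CTRL granzyme cells (107 to 213, 35 UMIs). Cycling cells held 674 CPM in DHEA and 51.7 CPM in CTRL. Memory cells of the libraries overlapped, at 12.4 CPM in DHEA (10.97 to 14.1) and 13.8 CPM in CTRL (11.9 to 15.95), and naive cells stood lowest, at 3.60 CPM in DHEA and 0.449 CPM in CTRL, where 9 UMIs were found. The log2 ratio of granzyme to naive cells was 7.43 in DHEA and 8.41 in CTRL.

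S100a6, or calcyclin, whose best known partner is the calcyclin-binding protein Cacybp, followed the same order of gates in CTRL and had its highest level in cycling cells in DHEA. Cycling cells gave 2993 CPM in DHEA (2861 to 3129) and 134 CPM in CTRL (105 to 169). The place of cycling above memory cells in CTRL rests on 1 cell, which gave 37 of the 70 cycling UMIs. With the top S100a6 cell of each gate left out, CTRL cycling cells had 64.6 CPM and CTRL memory cells 86.6 CPM. In granzyme cells the level was 1302 CPM in DHEA and 485 CPM in CTRL, with intervals that did not overlap. Memory cells had 112 CPM in DHEA and 88.2 CPM in CTRL, and naive cells 11.6 CPM in DHEA and 2.39 CPM in CTRL. Memory over naive cells gave log2 ratios of 3.27 in DHEA (3.03 to 3.52) and 5.20 in CTRL (4.79 to 5.65), and the same ratio of S100a4 was 1.79 in DHEA (1.33 to 2.28) and 4.94 in CTRL (3.99 to 6.10). The DHEA values lean on 1 naive-gate cell, described below. With the top cell of each gate left out, the memory over naive ratio was 3.901 in DHEA and 5.23 in CTRL for S100a6, and 3.06 in DHEA and 4.94 in CTRL for S100a4, whose granzyme over naive ratio was then 8.62 in DHEA and 7.64 in CTRL.

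Lgals3, a galectin with a single sugar-binding domain that forms lattices on surface glycoproteins and restrains T cell receptor signalling, was close to absent outside granzyme and cycling cells. It had 111 CPM in DHEA granzyme cells (91.8 to 132) and 65.5 CPM in CTRL granzyme cells (36.7 to 108), which overlap. Cycling cells separated the libraries: 321 CPM from 208 UMIs in DHEA, against 5.75 CPM from 3 UMIs in CTRL. In memory cells the level was 1.71 CPM in DHEA and 1.13 CPM in CTRL, and naive cells held 4 UMIs in DHEA and 3 in CTRL.

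Lgals1, a dimeric galectin that can trigger the death of activated T cells when secreted, was present in every gate. It measured 1179 CPM in DHEA granzyme cells (1115 to 1245) and 450 CPM in CTRL granzyme cells (367 to 546). Cycling cells had 2080 CPM in DHEA and 326 CPM in CTRL. Below these, the libraries were close, with 142 CPM in DHEA and 131 CPM in CTRL memory cells and 63.7 CPM in DHEA and 61.8 CPM in CTRL naive cells.

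Anxa2, a membrane-binding annexin that forms a heterotetramer with S100a10, was higher in granzyme, cycling and memory cells than in naive cells. Granzyme cells held 187 CPM in DHEA (163 to 215) and 122 CPM in CTRL (81.2 to 177), and cycling cells 616 CPM in DHEA and 172 CPM in CTRL. Memory cells were lower in DHEA, at 50.7 CPM (47.7 to 53.9), than in CTRL, at 60.1 CPM (56.02 to 64.4). Naive cells had 8.997 CPM in DHEA and 7.13 CPM in CTRL, so the memory step was log2 2.50 in DHEA and 3.08 in CTRL.

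Anxa1, the ligand of formyl peptide receptors through which glucocorticoids calm inflammation, was close to absent. It had 27 UMIs in all DHEA cells and 20 in all CTRL cells, too few for the 50-UMI minimum of the counts below. Granzyme cells held 14 UMIs in DHEA (12.8 CPM) and 8 in CTRL (34.9 CPM), a log2 ratio of -1.45 whose interval ran from -2.80 to 0.01. Cycling cells had 6 UMIs in DHEA and 0 in CTRL, where 3 UMIs would give 5.75 CPM. Of the 8 CTRL granzyme UMIs, 6 came from 1 cell.

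The other 4 genes were broad, with a shallow rise toward effector cells. S100a10, also called p11, which has lost calcium binding and stays locked to Anxa2, stood at 1700 CPM in DHEA and 834 CPM in CTRL granzyme cells, 2072 and 783 CPM in DHEA and CTRL cycling cells, and 445 and 413 CPM in DHEA and CTRL naive cells. S100a11, a partner of annexins in membrane repair, had 514 CPM in DHEA granzyme cells (472 to 558) and 371 CPM in CTRL granzyme cells (297 to 459), against 170 CPM in DHEA and 176 CPM in CTRL naive cells. S100a13, which takes part in leaderless secretion of IL-1 alpha and FGF1, had 330 CPM in DHEA and 162 CPM in CTRL granzyme cells and 95.4 CPM in DHEA and 92.3 CPM in CTRL naive cells. In the annotation S100a13 overlaps S100a1, which held 38 UMIs in DHEA and 16 in CTRL, so reads of the overlap could belong to either gene.

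Vim, the filament protein of motile lymphocytes, was highest in cycling cells of both libraries, with 1225 CPM in DHEA (1141 to 1313) and 471 CPM in CTRL (414 to 534). Granzyme cells had 595 CPM in DHEA and 310 CPM in CTRL. Memory cells did not separate, at 246 CPM in DHEA (239 to 253) and 251 CPM in CTRL (243 to 260), and naive cells were lower in DHEA, at 176 CPM (168 to 183), than in CTRL, at 208 CPM (202 to 215).

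Counts of genes at least 1.5-fold apart, with at least 50 UMIs over the groups compared, put these levels against the rest of the transcriptome. The members were chosen with earlier results of these data known, so these counts and those below set a chosen list beside unselected genes. Of the measured members, 9 of 9 were at least 1.5-fold higher in granzyme than in naive cells of the DHEA library, where 15.2% of all 9580 tested genes were, and 6 of 7 in CTRL, where 19.8% were. Between cycling and naive cells the count was 9 of 9 in DHEA (22.4% of all genes) and 6 of 7 in CTRL (22.1%). Between memory and naive cells it was 4 of 8 in each library, against 5.68% of all genes in DHEA and 5.74% in CTRL, and the 4 were S100a4, S100a6, Lgals1 and Anxa2 in each. The exception in CTRL was Vim for granzyme cells, with a log2 ratio of 0.57 (0.21 to 0.91), and S100a13 for cycling cells, with 0.54. The members' median log2 ratio of granzyme to naive cells was 4.21 over the 9 genes measured in DHEA, beside 0.05 over all tested genes, and 1.08 over the 7 measured in CTRL, beside -0.02. Over the same 7 genes it was 1.93 in DHEA and 1.08 in CTRL. S100a4 and Lgals3 missed the minimum in CTRL, where their granzyme and naive sums together held under 50 UMIs.

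**Figure D2:**
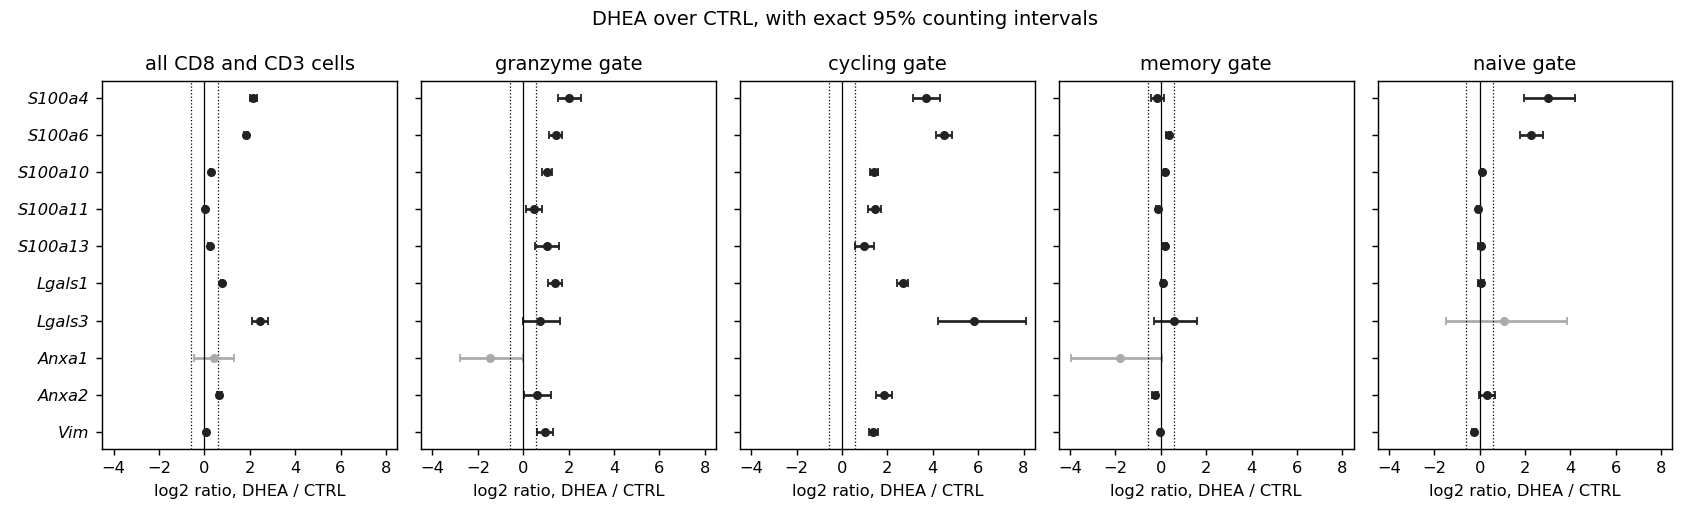
Log2 ratio of DHEA over CTRL for each gene in all kept cells and in each gate, with exact 95% counting intervals; dotted lines mark 1.5-fold, and grey points have under 50 UMIs. The granzyme and cycling ratios lie to the right of 0 for the 9 measured genes, and most memory and naive ratios lie near 0.

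Over all kept cells, 5 of the 9 measured members were at least 1.5-fold higher in DHEA than in CTRL, where 3.35% of all 12788 tested genes were, and none was 1.5-fold lower (3.79% of all genes). They were S100a4, with a log2 ratio of 2.16 (1.99 to 2.32), S100a6, with 1.84 (1.76 to 1.91), Lgals3, with 2.45 (2.09 to 2.82), Lgals1, with 0.78 (0.73 to 0.84), and Anxa2, with 0.66 (0.56 to 0.76). S100a10 and S100a13 stood at 0.27 and 0.23, and S100a11 and Vim at 0.04 and 0.06.

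Granzyme cells differed more widely. In them 8 of 9 members were at least 1.5-fold higher in DHEA, as were 17.7% of all tested genes, and 0 were 1.5-fold lower, as were 8.97% of all genes. S100a4 had a log2 ratio of 2.02 (1.53 to 2.55), S100a6 1.43 (1.15 to 1.72), Lgals1 1.39 (1.10 to 1.69), S100a13 1.03 (0.54 to 1.56), S100a10 1.03 (0.81 to 1.25) and Vim 0.94 (0.59 to 1.32). The intervals of Lgals3 (0.76, -0.02 to 1.64) and Anxa2 (0.62, 0.04 to 1.24) reached to or near 0, and S100a11 was at 0.47 (0.14 to 0.82). Some of these ratios dropped under 1.5-fold in other settings: S100a13 was at 0.02 when cells were thinned to 1000 UMIs after gating, and Anxa2 and Vim were at 0.15 and 0.56 with stricter gates. The CTRL gate rests on 32 cells. S100a4 had a UMI in 5 of them, 1 of which gave 15 of the 35 UMIs, and 1 cell gave 12 of the 15 Lgals3 UMIs. The libraries' granzyme cells were also unlike in effector markers. Gzma, Gzmb, Gzmk, Klrg1, Cx3cr1, S1pr5 and Prf1 summed to 3246 CPM in DHEA and 1061 CPM in CTRL granzyme cells. Prf1 alone was close, at 152 CPM in DHEA and 148 CPM in CTRL. The part of this in the ratios was not tested.

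Beside these granzyme-gate values stand 5 markers of natural killer cells (Klrb1c, Ncr1, Klre1, Tyrobp and Fcer1g), which summed to 215 CPM in DHEA and 546 CPM in CTRL granzyme cells. Ncr1, the defining marker, had 0 UMIs in DHEA and 8 in CTRL, and Fcer1g had 5 in DHEA and 31 in CTRL. With cells holding a UMI of the defining natural killer, innate T or myeloid markers left out, 189 DHEA and 26 CTRL cells remained and the S100a4 ratio was 3.20. A wider rule left out cells with any UMI of 7 marker lists and kept 87 DHEA and 5 CTRL cells, where the S100a4 ratio was 0.33. Those lists hold genes found in every gate, such as Pecam1, at 147 CPM in DHEA and 161 CPM in CTRL naive cells. The wider rule thus also drops many naive cells, keeping 1462 of 3245 in DHEA and 1404 of 4058 in CTRL. Of the 9 myeloid markers, Csf1r, Adgre1, S100a8 and S100a9 were at 0 in granzyme and cycling cells of both libraries, and most of the list's 86.0 CPM in DHEA and 127 CPM in CTRL granzyme cells came from Cst3. In cycling cells the list was higher in DHEA, at 153 CPM, than in CTRL, at 86.2 CPM. Cst3 gave 137 CPM of it in DHEA and 84.3 CPM in CTRL. Cd68 had 7 UMIs in DHEA and 1 in CTRL cycling cells, and Itgam 3 in DHEA and 0 in CTRL. Their part in the result was not tested.

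In cycling cells 9 of 9 members were at least 1.5-fold higher in DHEA, beside 10.8% of all genes, and 0 lower, beside 11.6%. The log2 ratio was 5.80 for Lgals3 (4.24 to 8.09), 4.48 for S100a6 (4.14 to 4.85), 3.71 for S100a4 (3.14 to 4.32), 2.68 for Lgals1, 1.84 for Anxa2, 1.43 for S100a11, 1.40 for S100a10, 1.38 for Vim and 0.98 for S100a13. The members' median was 1.84, beside 0.01 over all 3546 tested genes. The gates did not hold the same kind of cell, however: 50 of 68 DHEA cycling cells carried a granzyme UMI, against 3 of 32 CTRL cycling cells, and 7 effector markers, which include the 3 granzyme genes, summed to 2260 CPM in DHEA and 11.5 CPM in CTRL cycling cells. DHEA cycling cells also held 17 UMIs of Hbb-bs and 9 of Hba-a1, both haemoglobin genes, where CTRL cycling cells held 0, and their part in the result was not tested.

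Memory cells showed little of this, and among the members measured in naive cells it was limited to S100a4 and S100a6. In memory cells 0 of 9 members were 1.5-fold lower in DHEA (2.58% of all genes) and 1, Lgals3, was at least 1.5-fold higher (1.99% of all genes), on 35 UMIs in DHEA and 15 in CTRL, with an interval from -0.31 to 1.58 and 13 of the DHEA UMIs in 1 cell. The other ratios in memory cells ran from -0.25 for Anxa2 (-0.38 to -0.11) to 0.34 for S100a6 (0.24 to 0.44). In naive cells 2 of 8 members, S100a4 and S100a6, were at least 1.5-fold higher (2.04% of all genes) and 0 lower (2.43%), with log2 ratios of 3.003 (1.96 to 4.22) and 2.27 (1.80 to 2.78). Both rest in large part on 1 DHEA cell that passed the naive gate, which held 27 of the 46 S100a4 UMIs and 56 of the 148 S100a6 UMIs. That cell had 16918 UMIs, against a median of 3748 in the gate, and also held 48 S100a10 and 22 Lgals1 UMIs. Without the top cell of each library S100a4 was still higher in DHEA, at 1.49 CPM, than in CTRL, at 0.399 CPM. S100a6 was too, at 7.21 CPM in DHEA and 2.00 CPM in CTRL.

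**Figure D3:**
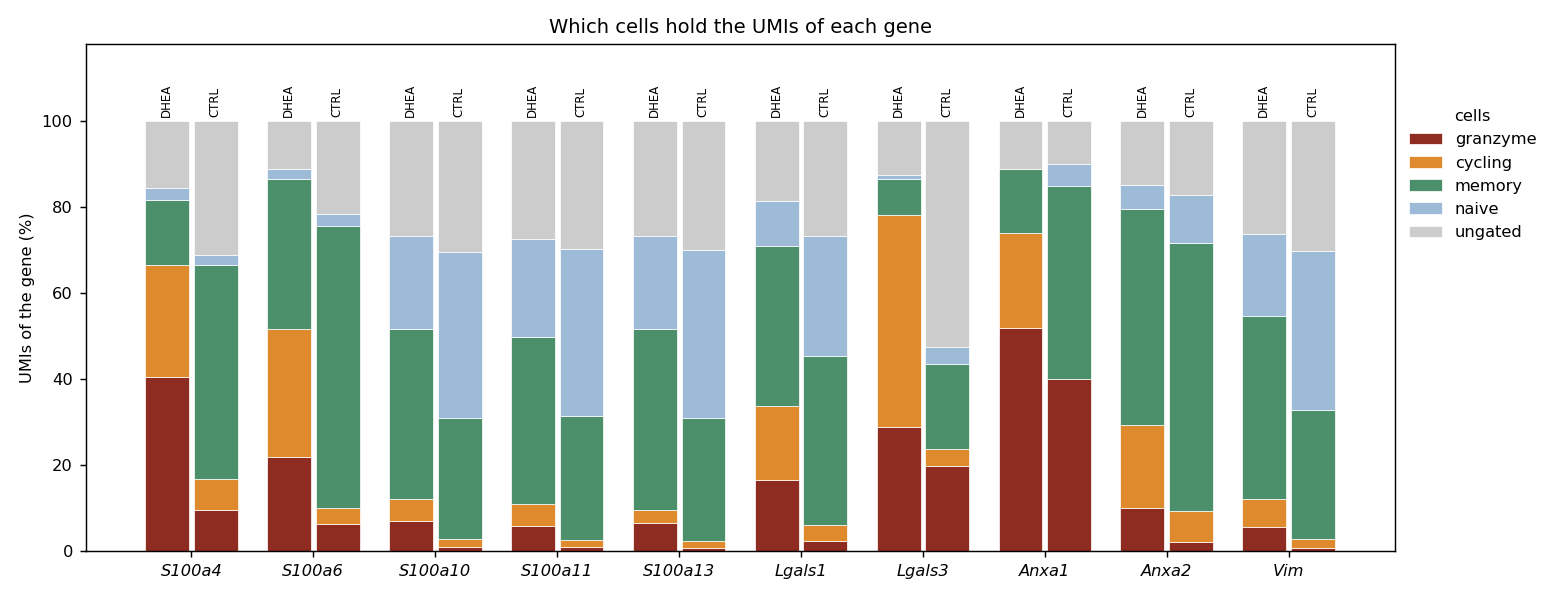
Percent of each gene's UMIs that came from granzyme, cycling, memory, naive and ungated cells, with the DHEA bar left of the CTRL bar. Granzyme and cycling cells held most UMIs of S100a4 and Lgals3 in DHEA, where memory and ungated cells did in CTRL, while S100a10, S100a11, S100a13 and Vim stayed spread over memory, naive and ungated cells.

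Which cells held the transcripts differed between the libraries. Of all S100a4 UMIs, granzyme cells held 40.4% in DHEA and 9.46% in CTRL, and cycling cells 26.1% in DHEA and 7.30% in CTRL, while memory cells held 15.2% in DHEA and 49.7% in CTRL. For S100a6, cycling cells held 29.7% in DHEA and 3.904% in CTRL. For Lgals3 the cycling share was 49.4% in DHEA and 3.95% in CTRL, although those 68 and 32 cells were under 1% of each library. Lgals1 had 16.5% of its UMIs in granzyme cells in DHEA and 2.31% in CTRL, and 17.3% in cycling cells in DHEA and 3.82% in CTRL. Vim had 5.49% of its UMIs in granzyme cells in DHEA and 0.633% in CTRL, and 6.70% in cycling cells in DHEA and 2.19% in CTRL.

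The difference over all cells was split into a part from the share of UMIs each class of cells took up, at the mean level of the libraries, and a part from the level within classes. For S100a4 the difference of 26.0 CPM was made of 8.92 CPM from shares and 17.0 CPM from levels. The split was 31.6 and 62.3 CPM for S100a6, 25.6 and 39.6 CPM for Lgals1, and 2.04 and 4.83 CPM for Lgals3, so levels within classes carried the larger part of each. Anxa2 was the reverse, with 9.93 CPM from shares and 5.21 CPM from levels. In this split, a change in which cells fill a class counts as level. Cycling cells, which were unlike in the 2 libraries as described above, gave much of the level parts. They gave 7.33 CPM for S100a4, 33.7 CPM for S100a6, 20.7 CPM for Lgals1, 3.71 CPM for Lgals3 and 5.22 CPM for Anxa2. Which part was larger depended on the setting. The split was recomputed under the 17 other settings of the closing section, except TMM factors, 2-fold, each cell's share and cycling without granzyme UMIs. The level part ran from 41.8% to 70.2% of the difference for S100a4, 44.6% to 68.9% for S100a6 and 48.5% to 64.7% for Lgals1. For Lgals3 it ran from 43.7% to 80.9% and for Anxa2 from 15.2% to 52.4%. S100a10 differed by 90.5 CPM, of which 23.8 came from shares and 66.7 from levels. For S100a11 and Vim the parts had opposite signs, 7.66 and -2.75 CPM and 13.7 and -4.86 CPM.

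**Figure D4:**
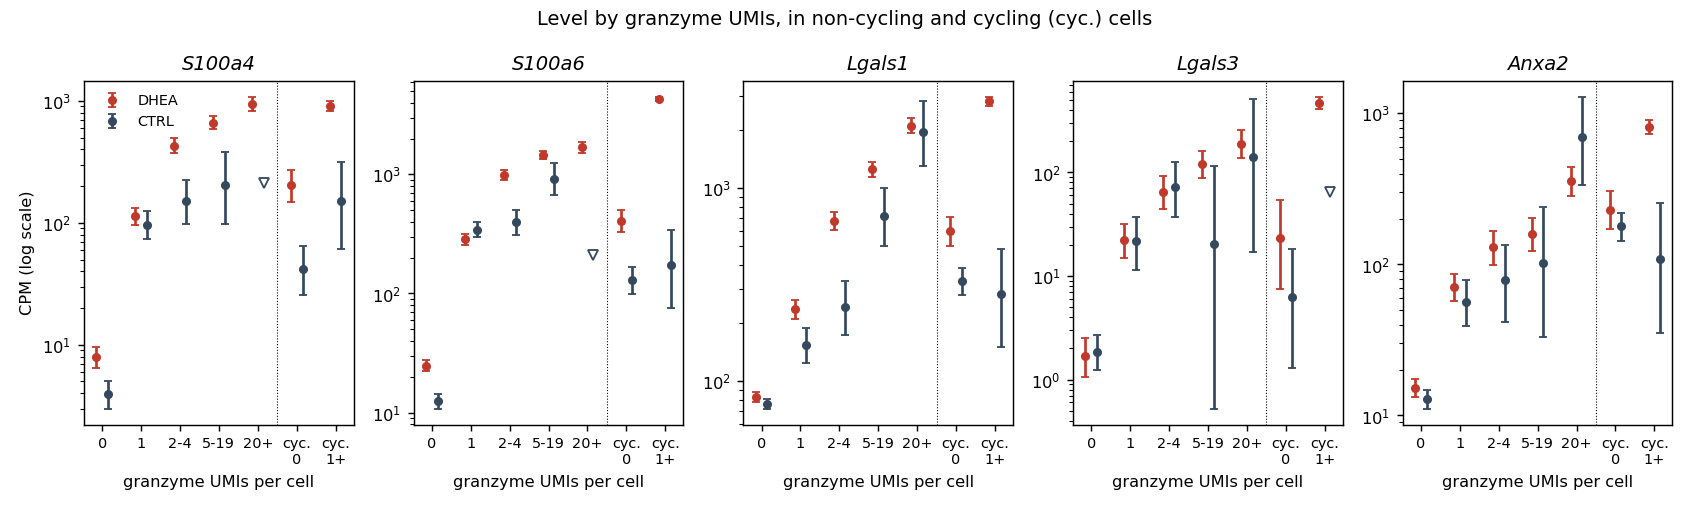
Level in CPM (log axis) of S100a4, S100a6, Lgals1, Lgals3 and Anxa2 by granzyme UMIs per cell, in ungated cells (0 or 1) and granzyme-gate cells (2 or more), and right of the dotted line in cycling cells without and with granzyme UMIs; DHEA in red left of CTRL in dark blue. Points are sums with exact 95% counting intervals, and open triangles mark 0 UMIs at the level that 3 UMIs would give. In DHEA each gene climbs with every step of granzyme UMIs, and cycling cells with granzyme UMIs lie above those without.

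Within the DHEA granzyme gate the levels climbed with granzyme UMIs. S100a4 stood at 428 CPM in 97 cells with 2 to 4 granzyme UMIs, 661 CPM in 91 cells with 5 to 19 and 947 CPM in 41 cells with 20 or more. The corresponding DHEA steps were 991, 1459 and 1687 CPM for S100a6, 676, 1251 and 2110 CPM for Lgals1, and 65.1, 120 and 189 CPM for Lgals3, each in rising order. CTRL had 24, 6 and 2 cells in these steps, and its 2 cells with 20 or more granzyme UMIs held 0 S100a4 and 0 S100a6 UMIs, although they held 28 of Lgals1 and 36 of S100a10. At 2 to 4 granzyme UMIs, where CTRL had most of its cells, S100a4 was at 428 CPM in DHEA (372 to 491) and 151 CPM in CTRL (97.5 to 222), and S100a6 at 991 CPM in DHEA and 398 CPM in CTRL. Cells with exactly 1 granzyme UMI, which no gate took, did not separate the libraries by S100a4 or put DHEA higher by S100a6: S100a4 had 113 CPM in DHEA (96.2 to 133) and 96.4 CPM in CTRL (73.2 to 125), and S100a6 284 CPM in DHEA and 344 CPM in CTRL. Lgals1, at 235 CPM in DHEA (210 to 263) and 153 CPM in CTRL (123 to 188), was still apart in these cells, and S100a10 stood at 623 CPM in DHEA (582 to 667) and 522 CPM in CTRL (466 to 583).

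Cycling cells split along the same line. In the DHEA library, cycling cells with a granzyme UMI had 911 CPM of S100a4, 4291 CPM of S100a6, 2822 CPM of Lgals1, 470 CPM of Lgals3 and 809 CPM of Anxa2. DHEA cycling cells without one, 18 cells, had 203, 406, 600, 23.1 and 231 CPM of the same genes. Compared with the 29 such CTRL cells, the libraries still differed for S100a4 (203 CPM in DHEA, 148 to 273, and 42.0 CPM in CTRL, 25.7 to 64.9), S100a6 (406 and 130 CPM in DHEA and CTRL), Lgals1 (600 and 330 CPM in DHEA and CTRL) and S100a10 (1099 CPM in DHEA, 964 to 1248, and 775 CPM in CTRL, 698 to 858). Anxa2, at 231 CPM in DHEA (171 to 304) and 179 CPM in CTRL (143 to 221), and Vim, at 475 CPM in DHEA and 466 CPM in CTRL, overlapped. Of the 8 members with at least 50 UMIs in these cells, 3 were at least 1.5-fold higher in DHEA, S100a4, S100a6 and Lgals1, as were 5.26% of all genes. Lgals3 had 5 UMIs in DHEA and 3 in CTRL there.

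**Figure D5:**
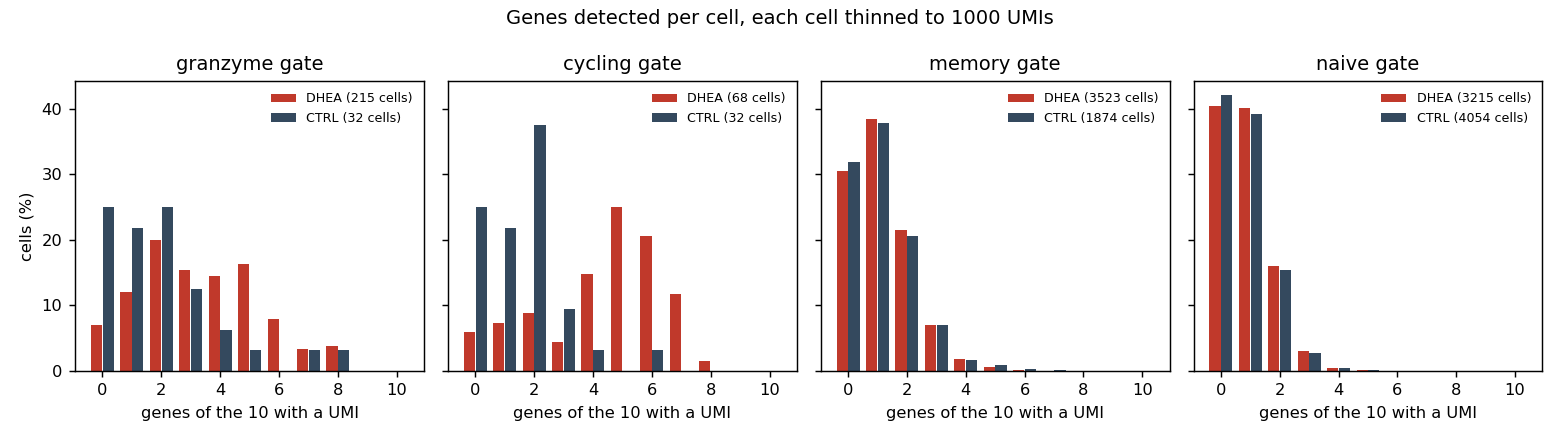
Percent of cells by how many of the 10 genes had a UMI, each cell thinned to 1000 UMIs, in the 4 gates, with DHEA bars left of CTRL bars. At least 5 of the genes were found in 31.2% of DHEA and 9.38% of CTRL granzyme cells and in 58.8% of DHEA and 3.12% of CTRL cycling cells, and memory and naive cells of both libraries look alike, with most cells at 0 or 1.

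At an equal 1000 UMIs per cell, a DHEA granzyme cell held UMIs of 3.37 of the 10 genes on average and a CTRL granzyme cell 1.97. Cycling cells held 4.40 in DHEA and 1.56 in CTRL, memory cells 1.13 in each library, and naive cells 0.831 in DHEA and 0.803 in CTRL. The share of cells with an S100a6 UMI was 52.1% (45.2 to 58.9) in DHEA and 34.4% (18.6 to 53.2) in CTRL granzyme cells and 67.6% (55.2 to 78.5) in DHEA and 3.12% (0.0791 to 16.2) in CTRL cycling cells. In naive cells, at medians of 3748 and 5052 UMIs before thinning in DHEA and CTRL, that share was 1.03% in DHEA and 0.271% in CTRL, and a share at or below it was not read as expression. Without thinning the granzyme shares were 67.7% in DHEA and 56.2% in CTRL. The 14 DHEA granzyme cells under 1000 UMIs were left out, and no CTRL granzyme cell was.

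Genes of the set were found together in the same cells only loosely. Across the 215 thinned DHEA granzyme cells, which share 1 library and 1 depth, Pearson's r was 0.40 between S100a4 and S100a6, 0.35 between Lgals1 and Vim, 0.33 between Lgals3 and Anxa2 and 0.33 between S100a6 and S100a10. Over the 36 pairs measured there the median r was 0.21. In memory cells the highest r, again between S100a4 and S100a6, was 0.20 in DHEA and 0.17 in CTRL. Between the same 2 genes it was 0.42 in DHEA ungated cells.

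Genes whose level over the 8 sums of gate and library was most like the mean log2 level of the 10 genes were Med10, with a Pearson's r of 0.988, Gna15, Rap1gap2, Med12l, Ccdc12, Serpinb6b, Plekho2 and Hip1, the last with 0.979. With 8 points that share libraries, 1.79% of the 10480 genes compared had an r above 0.9. For single members the nearest were Rap1gap2 and Prr13 for S100a4, Hip1 and Gng2 for S100a6, Myl6 and Txndc17 for S100a10, Ppp2r1a and Smim20 for S100a11, Leprot and Psmb1 for S100a13, and Sub1 and Krtcap2 for Lgals1. Those of Lgals3 were Ccdc12 and Lxn, those of Anxa1 Tmem154 and Gm57030, and those of Anxa2 Ybx3 and Eea1. Vim lay nearest to Crip1, with r of 0.994, which had 2044 CPM in DHEA and 1044 CPM in CTRL cycling cells and 435 CPM in DHEA and 466 CPM in CTRL naive cells, and then to Bcat2.

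Most of the other measured genes of these families lay within 1.5-fold between the libraries over all kept cells. Of 39 other S100, galectin, annexin and nuclear lamina or linker genes, 38 were in the files and 22 had at least 50 UMIs; over all kept cells 4 of these were at least 1.5-fold higher in DHEA, as were 3.35% of all genes, and 1 lower, as were 3.79%, and their median log2 ratio was -0.03, beside -0.004 over all genes. S100a9 and S100a8, the calprotectin subunits of neutrophils, had log2 ratios of 7.99 (5.50 to 13.3) and 7.66 (5.16 to 12.97), but 454 of their 463 DHEA UMIs sat in 1 ungated cell, which also held 19 S100a6 and 36 S100a11 UMIs. S100a1, at 1.22, and Lgalsl, at 0.73, rest on 38 and 81 DHEA UMIs, and Lgals4, at -0.77, on 110. Anxa5 and Anxa6, annexins of the inner membrane face, stood at 0.03 and -0.05, and the lamin gene Lmna at 0.19. In cycling cells 3 of the 8 measured, Anxa6, Anxa7 and Anxa11, were at least 1.5-fold higher in DHEA and 0 lower, beside 10.8% and 11.6% of all genes. Anxa6 had 319 CPM in DHEA and 199 CPM in CTRL cycling cells. In granzyme cells 2 of 9 were higher and 2 lower, beside 17.7% and 8.97% of all genes.

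Partners of the 10 proteins, like most genes, lay mostly within 1.5-fold over all kept cells, and less so in effector cells. Of 32 receptors, binding partners and cytoskeletal genes, 25 were measured over all kept cells, with a median log2 ratio of 0.07. Among these, 1 was at least 1.5-fold higher and 1 lower, beside 3.35% and 3.79% of all genes. Lag3, an inhibitory receptor that Lgals3 binds, was higher at 1.24 (0.50 to 2.03, 53 UMIs in DHEA and 22 in CTRL) and Ager, the receptor for S100 ligands, lower at -0.90 (-1.53 to -0.29). Cacybp, the S100a6 partner, had 0.46 (0.40 to 0.52), and Itgb1, the beta 1 integrin, 0.44 (0.37 to 0.51). Ahnak, the giant scaffold held by S100a10 and Anxa2, was at 0.07 and the non-muscle myosin heavy chain Myh9, which S100a4 binds, at -0.26 (-0.28 to -0.23). In cycling cells 10 of 21 measured partners were at least 1.5-fold higher in DHEA and 1 lower, beside 10.8% and 11.6% of all genes, and their median was 0.56. Ahnak had 190 CPM in DHEA and 30.6 CPM in CTRL cycling cells, and Itgb1 210 CPM in DHEA and 61.3 CPM in CTRL. In granzyme cells 7 of 19 were higher and 1 lower, beside 17.7% and 8.97% of all genes. In memory cells 0 of 23 partners were 1.5-fold apart, beside 1.99% of all genes higher and 2.58% lower. In naive cells 0 of 22 were, beside 2.04% higher and 2.43% lower. The memory, naive and all-cell counts thus lie near the shares of all genes.

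On chromosome 3 the members are interleaved with S100 genes that these cells barely used. S100a5, between S100a4 and S100a6, had 0 UMIs in both libraries, S100a3 had 8 in DHEA and 5 in CTRL, S100a14 had 1 in DHEA and 3 in CTRL, and S100a16 had 0 in DHEA and 1 in CTRL. S100a8 and S100a9, which follow S100a6 after S100a7a, had 0 UMIs in granzyme and cycling cells of both libraries, whereas S100a11 and S100a10 at the end of the cluster were found in every gate.

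Barcodes outside the CD8 and CD3 rule, 972 in DHEA and 493 in CTRL, carried the genes as well, at medians of 1613 UMIs in DHEA and 3185 in CTRL. There S100a4 had 149 CPM in DHEA and 127 CPM in CTRL, S100a6 372 CPM in DHEA and 276 CPM in CTRL, and Lgals3 38.4 CPM in DHEA and 77.7 CPM in CTRL. Anxa1, scarce among the kept cells, had 18.2 CPM in DHEA and 19.7 CPM in CTRL in these barcodes.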

How the data were processed

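Single-cell libraries of splenic CD8 T cells, 1 per group, were measured as UMI counts per gene and barcode. The authors deposited raw counts, and per the file headers the matrices came from Cell Ranger 8.0.1. Seurat 4.3.0 and the mm39 build also appear in the submitters' processing notes, with no role. The matrices hold 12128 DHEA and 9495 CTRL barcodes with 53020893 and 51638782 UMIs, and barcodes found in both were kept. No doublet caller was run; the highest 1% of UMIs was left out as an alternative. Counts were summed over the cells of a gate and divided by the gate's total (CPM). Intervals are exact Poisson and, for shares, Clopper-Pearson intervals at 95%, and a ratio's interval comes from the split of its 2 counts. A sum of 0 was set to a floor of 3 UMIs to bound a ratio, and sums that were both at or under this floor got none. With 1 library per group no test was made, and 1.5-fold is a rule of size. Named genes were the 10 members, up to 4 per list with the largest ratio, and the genes most like the members over the 8 sums, by Pearson's r of log2 of CPM plus 1 with at least 200 UMIs. Genes of the lists outside that rule, the neighbours on chromosome 3 and the cell markers were named after their values were seen. The members and lists were chosen with earlier results of these data known. Promoters are RefSeq sequences of GRCm38.p6, a build other than mm39. Scaling by edgeR's TMM factors was an alternative. The ratio and likeness steps were tested on simulated counts. Tools were Python 3.11.15, numpy 2.4.6, scipy 1.17.1, pandas 2.3.3, matplotlib 3.10.9, R 4.3.3 and edgeR 4.0.16. A gene of the naive gate, and a split of the memory gate by it, are not reported here.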

Additional observations from a re-analysis of the deposited data

Results flagged for a closer look

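The DHEA over CTRL ratio had opposite signs in different gates for 3 genes, a difference that was not tested. S100a11 had a log2 ratio of -0.13 in memory cells and 1.43 in cycling cells. Anxa2 had -0.25 in memory cells and 1.84 in cycling cells, and its memory ratio turned positive in 2 of 15 other settings, up to 0.12 without cells holding any marker of other cell types, where its cycling ratio was 0.15 on 1 CTRL cell. Vim had -0.25 in naive cells and 1.38 in cycling cells. S100a8 and S100a9, which are not among the 10 genes, had 4.09 CPM and 5.15 CPM in the DHEA library over all kept cells, above the 1 UMI each in the CTRL library; 454 of their 463 DHEA UMIs came from 1 cell.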

How the results depend on the processing

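No paired analysis was possible because each group has 1 library. Under 17 other settings, 3 of them chosen after seeing the data, 103 single ratios gave 1516 values, of which 1190 stayed within the counting interval, 318 moved and 8, all of ratios at least 1.5-fold apart, changed sign. A further 19 values of 10 ratios nearer to 0 also changed sign: Anxa2, S100a4, S100a6, S100a13, Lgals1 and Vim in memory cells, S100a11, S100a13 and Lgals1 in naive cells and S100a11 over all cells. The count of members at least 1.5-fold higher in DHEA in memory cells was 1 and became 0 with the mean of each cell's share, thinning to 1000 UMIs after gating, without the highest 1% of UMIs, without shared barcodes, with stricter gates, at 2-fold and without cells holding defining natural killer, innate T or myeloid markers. In cycling cells 9 became 5 when thinned after gating, 3 when thinned before gating, 5 with cycling granzyme cells counted as granzyme and 3 without granzyme UMIs. In naive cells 2 became 1 when thinned after gating, without the highest 1%, without the defining markers or without the top cell, and 0 without cells holding any marker of other cell types. At 2-fold, 5 became 3 over all cells and 8 became 5 in granzyme cells. In CTRL, granzyme over naive was 3 in place of 6 when thinned after gating, and cycling over naive was 3 in place of 6 when so thinned and 2 without other markers, which leaves 1 CTRL cycling cell. Among the ratios at least 1.5-fold apart, signs changed for Lgals3 in memory cells (-0.00504 with each cell's share, -1.28 with stricter gates), Anxa1 in granzyme cells (1.15 without defining markers) and, thinned before gating, S100a13 in cycling cells (-0.27), S100a10 for CTRL granzyme over naive (-1.36) and S100a11 for CTRL cycling over naive (-0.0265). S100a10 (-0.57) and Vim (-0.41) changed sign for CTRL cycling over naive without other markers. The causes were not tested. Some of these settings keep fewer cells, but the mean of each cell's share keeps the same cells. Thinning after gating keeps all 68 DHEA and 32 CTRL cycling cells. A count also takes only members with at least 50 UMIs, so a member can leave it without a fall in its ratio. TMM factors shifted granzyme and cycling over naive ratios by -0.12 to -0.17. With at least 200 UMIs, 1.81% of all genes were 1.5-fold higher in DHEA over all cells, and with at least 1 UMI 13.7%, in place of 3.35%. Few UMIs limit Anxa1 and Lgals3 outside effector cells, and 32 cells each limit the CTRL granzyme and cycling gates.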
